A study of Rattus norvegicus with 9 samples.

Results

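Messenger RNA of 7 genes for proteins that scaffold or link the stereocilia of hair cells (HCs) was followed in the vestibular epithelium of rats exposed to 3,3′-iminodipropionitrile (IDPN), a nitrile that damages vestibular HCs. The genes were Ptprq, Strc, Adgrv1, Pdzd7, Clrn1, Ush1c and Ush1g. They were chosen by name from the 32883 genes of the count table, each matched 1 entry, and all 7 were among the 15517 genes that passed the filter on low counts. Male adult Long-Evans rats drank water with 20 mM IDPN for 3 weeks (IDPN-3wk) or 7 weeks (IDPN-7wk), and the Control rats drank water without it. Each group had 3 libraries, and each library held the pooled utricles and cristae of 1 rat. According to the methods, control animals were taken at both times, but the labels do not say which Control library belongs to which time, so both IDPN groups were compared with the same 3 libraries. The sample titles carry 4 codes of unstated meaning. All 3 Control libraries share a code found in no IDPN library, so what the code marks and the exposure cannot be told apart in the comparisons with Control. The only code shared by IDPN-3wk and IDPN-7wk is that of replicate 1 of each.

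The bundle of a vestibular HC is a staircase of stereocilia held together by several kinds of extracellular links. Harmonin (encoded by Ush1c) and Sans (Ush1g) are scaffold proteins that bind the cadherins of the tip link, through which the transduction channel is pulled. ADGRV1, a very large adhesion receptor, forms ankle links at the base of the stereocilia, and PDZD7 and whirlin (Whrn) are the scaffolds of that complex. PTPRQ, a receptor-like phosphatase, is needed for the shaft connectors along the stereocilia, and stereocilin (Strc) belongs to the horizontal top connectors and to the crowns that attach stereocilia to the overlying membrane. Clarin-1 (Clrn1) is a small membrane protein of HCs. Changes in several of these genes cause Usher syndrome or other forms of inherited hearing loss.

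The unit of level is CPM, a count corrected for sequencing depth with TMM factors. They were not divided by transcript length, so CPM values of different genes are not compared. A gene was called when its adjusted p-value was under 0.05 and its fold change above 1.5, the thresholds of the study. The study applied them with DESeq2, whereas the calls given here are from edgeR unless stated. In the IDPN-3wk group, 2 of the 7 genes were called lower, Ptprq and Adgrv1, against a background of 1.21% of all genes tested. In the IDPN-7wk group the called genes were also Ptprq and Adgrv1, against a background of 3.13% called lower. None of the 7 genes was called higher at either time, against backgrounds of 0.438% and 2%. At an unadjusted p-value under 0.05 there were 3 genes at 3 weeks and 5 at 7 weeks, all lower. The share over all genes at this rule was not computed, here or for the gene lists below, so such counts have no background. DESeq2 called 3 and 2 of the 7 genes, all lower. Its calls in both directions together, among 15517 genes, numbered 743 at 3 weeks and 1317 at 7 weeks. Its share called lower was not computed, so these totals do not compare with the edgeR shares above. The median log2 fold change of the 7 genes was -0.78 (3 weeks) and -0.55 (7 weeks). Over all genes tested it was -0.000467 and 0.0097. These values cannot tell fewer HCs from less RNA in each HC, since whole epithelia were sequenced.

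**Figure D1:**
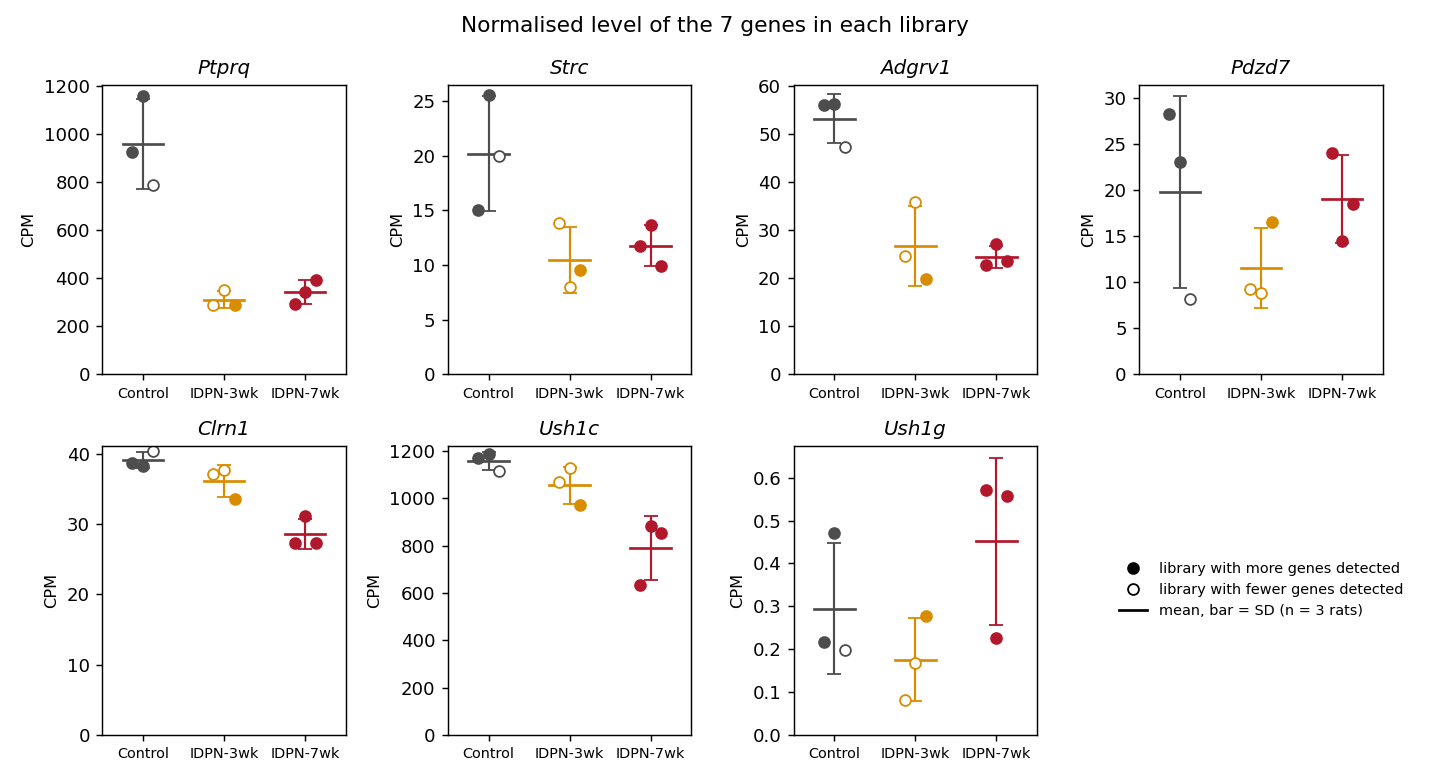
Level of each gene in each library, in CPM, with a panel for each gene and its own axis starting at 0. Points are libraries, open points are the 3 libraries with fewer detected genes, and bars are the mean and SD of 3 libraries. The IDPN points of Ptprq lie between 288 and 390.1 CPM, below the lowest Control library at 789 CPM, and the points of Pdzd7 and Ush1g overlap between groups.

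Library totals ran from 31100118 to 46018385 counts, and 3 counts corresponded to 0.0611 to 0.101 CPM. Counted at a common depth, 15387 to 15498 genes were detected in 3 libraries (replicate 3 of the Control group, replicates 1 and 2 of IDPN-3wk) and 16834 to 17312 in the other 6. All IDPN-7wk libraries were in the set with more genes. Every marker of HCs in a list of 12 was detected in all libraries, with a summed level of 1477 to 1698 CPM in the Control group, 914 to 1143 CPM in the IDPN-3wk group and 918 to 983 CPM in the IDPN-7wk group. The dissection also held other cells. The summed level of 10 supporting cell markers was 13160 to 13660 CPM in the Control group, 7918 to 9930 CPM in the IDPN-3wk group and 5358 to 7694 CPM in the IDPN-7wk group, and that of 4 Schwann cell markers was 4727 to 5922, 3669 to 4775 and 1424 to 3027 CPM. Such sums follow their most abundant genes. Otog alone had a mean of 8473 ± 116 CPM (SD, n = 3) in the Control group. It had 4674 ± 1088 CPM in the IDPN-3wk group and 3533 ± 989 CPM in the IDPN-7wk group. Of the 10 supporting cell genes, 9 had log2 fold changes below 0 at 3 weeks and 10 at 7 weeks. Gjb6, Otog, Otogl and Tectb were called lower at 7 weeks, and Gjb2, Slc1a3 and Lfng were not called at either time. Among the HC markers, Otof alone had a mean of 703 CPM in the Control group, 353 CPM in the IDPN-3wk group and 351 CPM in the IDPN-7wk group. The part of cell composition and of the library set in the values below was not tested beyond the values given beside them.

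Ptprq (ENSRNOG00000056915) had the larger fold change of the 2 called genes at both times. Its level was 926, 1159 and 789 CPM in Control replicates 1, 2 and 3. It was 288, 352 and 289 CPM in the IDPN-3wk group. In the IDPN-7wk group it was 292, 342 and 390.1 CPM. The lowest Control library was far above every IDPN library, and the ranges of both IDPN groups overlapped. The level was 3.09-fold lower at 3 weeks (log2 fold change -1.63, SE 0.159, adjusted p = 0.0014) and 2.81-fold lower at 7 weeks (-1.49, SE 0.158, adjusted p = 0.000611). Between IDPN-7wk and IDPN-3wk the difference was 0.14, with a 95% interval from -0.20 to 0.49 (adjusted p = 0.753). Both calls held in 13 of 13 alternative analyses. The difference was also present within each library set. In the set with fewer genes, the log2 level of the 2 IDPN-3wk libraries minus that of the Control library was -1.31. In the set with more genes, the difference from the 2 Control libraries was -1.84 for the IDPN-3wk library and -1.61 for the 3 IDPN-7wk libraries.

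Strc (ENSRNOG00000014845), which codes for the protein of the top connectors, was low in counts and more variable. Control libraries had 15.0, 25.6 and 20.0 CPM. IDPN-3wk libraries had 13.8, 8.01 and 9.53 CPM, and IDPN-7wk libraries had 11.7, 13.6 and 9.87 CPM. All IDPN libraries were under the lowest Control library, but the gap to Control replicate 1 was small. The log2 fold change was -0.95 at 3 weeks (SE 0.276, adjusted p = 0.126) and -0.78 at 7 weeks (SE 0.274, adjusted p = 0.143), so neither comparison was called. DESeq2, in place of edgeR, called it for IDPN-3wk, with a log2 fold change of -0.94 (adjusted p = 0.0331). The 2 IDPN groups differed by 0.17, with a 95% interval from -0.44 to 0.77 (adjusted p = 0.858).

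Adgrv1 (ENSRNOG00000016306), the gene of the ankle link receptor, had 56.0, 56.1 and 47.3 CPM in the Control group. The IDPN-3wk libraries had 24.6, 35.8 and 19.7 CPM. The IDPN-7wk libraries had 22.7, 27.0 and 23.5 CPM. No IDPN library reached the lowest Control library, and the IDPN-3wk libraries were the more spread of the IDPN groups. Adgrv1 was 1.99-fold lower at 3 weeks (log2 fold change -0.99, SE 0.21, adjusted p = 0.0445) and 2.18-fold lower at 7 weeks (-1.12, SE 0.21, adjusted p = 0.0117). Between the IDPN groups the log2 difference was -0.13, with a 95% interval from -0.59 to 0.34 (adjusted p = 0.855).

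The call of Adgrv1 at 3 weeks stood close to the threshold. It was lost without Control replicate 1 (adjusted p = 0.156), 2 (0.15) or 3 (0.0743), without IDPN-3wk replicate 1 (0.106) or 3 (0.0603), with the library set as a covariate (0.0657) and when only the 6 libraries compared were fitted (0.126). Its log2 fold change stayed between -1.51 and -0.82 in the 13 alternatives. At 7 weeks the call was lost without IDPN-7wk replicate 1 (adjusted p = 0.0605) or 3 (0.0555), with log2 fold changes from -1.20 to -1.07. In the set with fewer genes, the log2 level of IDPN-3wk minus Control was -0.67 (2 libraries against 1), and in the set with more genes it was -1.51 (1 library against 2).

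Pdzd7 (ENSRNOG00000032946), the gene of a scaffold of the ankle links, had 28.3, 23.1 and 8.13 CPM in the Control group. It had 9.29, 8.79 and 16.6 CPM in the IDPN-3wk group and 24.1, 14.5 and 18.5 CPM in the IDPN-7wk group. The groups overlapped in every comparison. The 3 lowest values, 8.13 to 9.29 CPM, were those of the 3 libraries with fewer detected genes, and the other 6 libraries had 14.5 to 28.3 CPM. The log2 fold change was -0.78 at 3 weeks (SE 0.43, adjusted p = 0.42) and -0.06 at 7 weeks (SE 0.426, adjusted p = 0.968), with a 95% interval from -1.01 to 0.89 at 7 weeks. With the library set as a covariate the value at 3 weeks was -0.25. Within the set with more genes, Control and IDPN-7wk libraries still overlapped in Pdzd7. In a later rat annotation than that of the files, GRCr8, Pdzd7 overlaps Lzts2, Strc overlaps Ckmt1, Ptprq overlaps a long non-coding RNA, and Adgrv1 overlaps an snRNA and 3 pseudogenes. These overlaps are of whole gene spans, and shared exons were not examined. The counting is not stated to use strand, and whether reads of these 4 genes were mixed with those of the other gene was not tested.

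Clrn1 (ENSRNOG00000042477) was the steadiest of the 7 genes among Control libraries in relation to its level, with 38.8, 38.3 and 40.5 CPM. The IDPN-3wk libraries had 37.2, 37.6 and 33.6 CPM, just below them. The IDPN-7wk libraries had 27.4, 31.1 and 27.3 CPM, below all others. The 3 groups did not overlap, but the differences were small. The log2 fold change was -0.12 at 3 weeks (SE 0.127, adjusted p = 0.716) and -0.45 at 7 weeks (SE 0.127, adjusted p = 0.0677). The 95% interval at 3 weeks, from -0.40 to 0.17, did not reach the values of Ptprq or Adgrv1 at that time.

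Ush1c (ENSRNOG00000021149) differed little from Control at 3 weeks and more at 7 weeks. Control libraries had 1169.9, 1186 and 1115 CPM. IDPN-3wk libraries had 1067, 1127 and 972 CPM, and IDPN-7wk libraries had 634, 882 and 853 CPM. The highest IDPN-3wk library overlapped the Control range, and all IDPN-7wk libraries were below every other library. The log2 fold change at 3 weeks was -0.13, with a 95% interval from -0.40 to 0.14 (adjusted p = 0.653). At 7 weeks it was -0.55 (SE 0.121, adjusted p = 0.0245), a level 1.465-fold lower, which passed the threshold on p but not the one on fold change. The value depended on which IDPN-7wk library was left out, since it was -0.42 without replicate 1 and -0.64 without replicate 2, and the gene was called in the latter case (adjusted p = 0.0308). The adjusted p-value rose above 0.05 without Control replicate 1 (0.0843), 2 (0.0828) or 3 (0.056), without IDPN-7wk replicate 3 (0.0519) and with the library set as a covariate (0.0521). Between the IDPN groups the log2 difference was -0.42 (SE 0.121, adjusted p = 0.184). The study itself, with its own DESeq2 analysis, names Ush1c among the genes downregulated in IDPN-7wk but not in IDPN-3wk rats.

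Ush1g (ENSRNOG00000028456) was measured by very few counts. There were 8, 15 and 7 counts in the Control libraries, 3, 5 and 9 in the IDPN-3wk libraries and 28, 11 and 22 in the IDPN-7wk libraries. These correspond to 0.216, 0.47 and 0.197 CPM, to 0.0818, 0.168 and 0.277 CPM, and to 0.57, 0.226 and 0.557 CPM. The CPM of the groups overlapped in every comparison. The 95% intervals of the log2 fold change, from -2.93 to 1.46 at 3 weeks and from -1.53 to 2.76 at 7 weeks, held changes in either direction, and no difference was detectable at this depth.

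**Figure D2:**
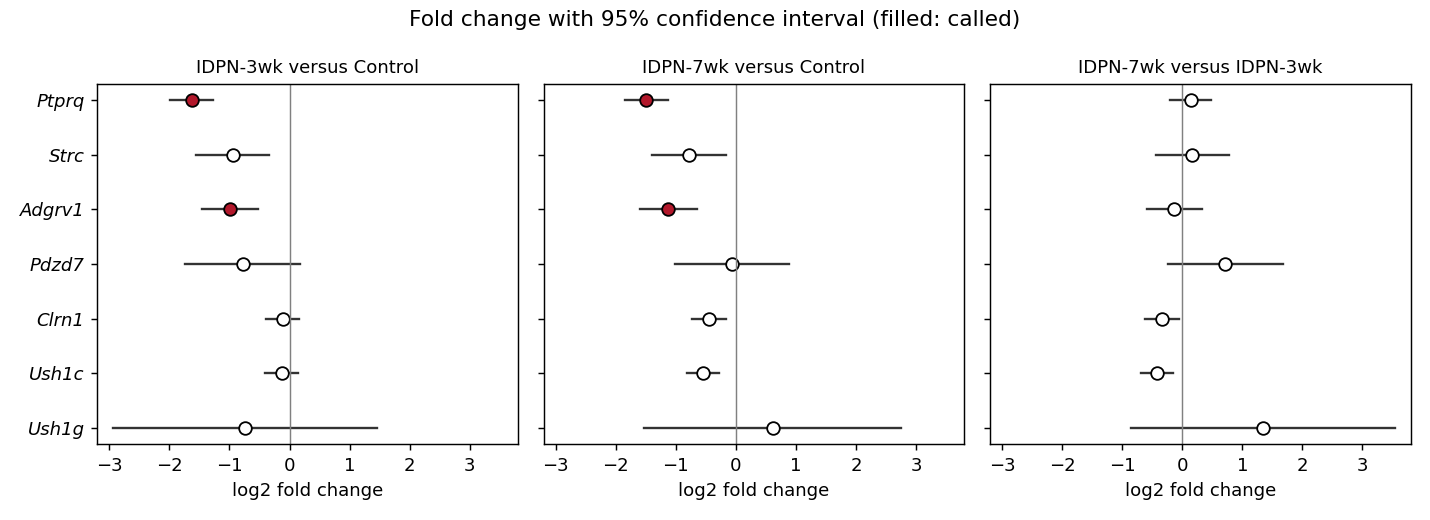
Log2 fold change of each gene in the 3 comparisons, with the 95% confidence interval of the edgeR fit as a line. Filled points mark called genes, which are Ptprq and Adgrv1 in both comparisons with Control, and no gene is filled in the comparison of IDPN-7wk with IDPN-3wk.

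The genes also differed in how the IDPN groups stood to each other, although differences between genes were not tested. Ptprq, Adgrv1 and Strc had log2 differences of -0.13 to 0.17 between IDPN-7wk and IDPN-3wk, and their IDPN groups overlapped. Ush1c and Clrn1 had log2 differences of -0.42 and -0.34, and all IDPN-7wk libraries were below all IDPN-3wk libraries. None of the 7 genes was called in either direction by edgeR between IDPN-7wk and IDPN-3wk, where the background was 0.483%. The unadjusted p-value was under 0.05 for 2 of them, Ush1c (0.00598) and Clrn1 (0.0239), a rule whose share over all genes was not computed. DESeq2 called 0 of the 7 genes and 524 among all genes. In the libraries that share a title code, replicate 1 of IDPN-3wk and replicate 1 of IDPN-7wk, Ptprq had 288 and 292 CPM, Adgrv1 24.6 and 22.7 CPM, Strc 13.8 and 11.7 CPM, Clrn1 37.2 and 27.4 CPM and Ush1c 1067 and 634 CPM, with 1 library against 1 and no test. The order of the groups is the same for Ush1c and Clrn1, with Control highest and IDPN-7wk lowest, and in Ush1c the Control and IDPN-3wk groups overlapped. Counting libraries only, 4 genes (Ptprq, Strc, Adgrv1 and Clrn1) had all IDPN-3wk libraries below all Control libraries, against 10.9% of all genes. At 7 weeks there were 5, with Ush1c added, against 17.1%. Between the IDPN groups there were 2, Ush1c and Clrn1, against 8.92%.

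A ratio within each library shows how a gene moved in relation to other HC genes. Each gene was divided by the geometric mean of 12 HC genes, including Pou4f3, a transcription factor of HCs, and Otof, a protein of transmitter release. The mean log2 CPM of these 12 genes was 5.384 to 5.621 in the Control group, 5.02 to 5.275 in the IDPN-3wk group and 4.664 to 4.867 in the IDPN-7wk group. The reference itself was thus lowest at 7 weeks, and a gene of unchanged CPM would rise in this ratio. The mean log2 ratio of Ptprq was 4.40 ± 0.202 (SD, n = 3) in the Control group, 3.10 ± 0.118 in the IDPN-3wk group and 3.62 ± 0.222 in the IDPN-7wk group. The difference from Control was -1.298 for IDPN-3wk and -0.78 for IDPN-7wk, and no groups overlapped. For Adgrv1 the differences from Control were -0.71 and -0.42, also without overlap. The ratio of Clrn1 was 0.20 and 0.24 above Control, without overlap, although its CPM was below Control in both IDPN groups. The ratio of Ush1c was 0.18 higher at 3 weeks without overlap, and 0.13 higher at 7 weeks with overlap. For Strc the differences were -0.63 and -0.06, with overlap, and for Pdzd7 they were -0.34 and 0.79, with overlap. The ratio of Ush1g, which rests on few counts, differed from Control by -0.29 at 3 weeks with overlap and by 1.23 at 7 weeks without overlap. Between IDPN-7wk and IDPN-3wk the ratios without overlap were those of Ptprq (0.52 higher), Pdzd7 (1.13 higher) and Ush1g (1.52 higher).

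The exact permutation test (two-sided) gave p = 0.1 for each ratio without overlap, which is the smallest value that 3 against 3 libraries can give, so no ratio could pass 0.05. The reference mattered at both times. At 3 weeks the ratios without overlap numbered 4 with the geometric mean, 4 with Myo7a alone and 2 with the median of the 12 genes. The share of all genes without overlap in such a ratio was not computed, so these counts have no background. With Myo7a alone as the reference the differences of Ptprq, Adgrv1, Clrn1 and Ush1c from Control at 7 weeks were -1.15, -0.79, -0.13 and -0.24, and with the median of the 12 genes they were -0.50, -0.14, 0.52 and 0.41. The direction for Clrn1 and Ush1c at 7 weeks therefore turned with the reference, and that for Ptprq and Adgrv1 did not.

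**Figure D3:**
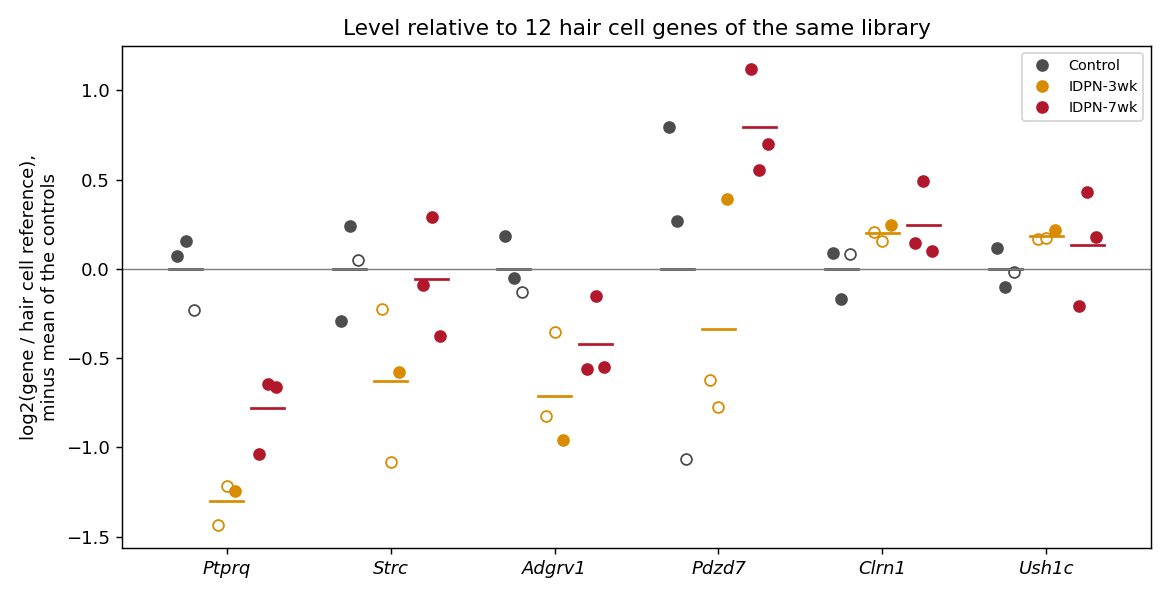
Log2 ratio of 6 of the genes to the geometric mean of 12 HC genes in the same library, minus the mean of the Control group. Points are libraries (open for those with fewer detected genes) and lines are group means of 3 libraries. All IDPN points of Ptprq and Adgrv1 lie below their Control points, whereas those of Clrn1 lie above them, a direction that turned at 7 weeks when Myo7a alone was the reference. The reference of 12 genes was itself lower in every IDPN library than in every Control library.

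A direct ratio of Ptprq to Ush1c, chosen after the values were seen and given as a description, does not need a reference list. It was 0.791, 0.977 and 0.708 in the Control libraries, 0.27, 0.312 and 0.297 in the IDPN-3wk libraries and 0.46, 0.388 and 0.457 in the IDPN-7wk libraries. The groups did not overlap, and the IDPN-3wk group was the lowest. The ratio of Adgrv1 to Clrn1, chosen in the same way, was 1.17 to 1.46 in the Control group, 0.586 to 0.951 in the IDPN-3wk group and 0.83 to 0.867 in the IDPN-7wk group. A further ratio computed in this way, that of Adgrv1 to Pdzd7, was 1.98, 2.43 and 5.82 in the Control libraries, 2.64, 4.07 and 1.19 in the IDPN-3wk libraries and 0.943, 1.86 and 1.27 in the IDPN-7wk libraries. It overlapped between Control and IDPN-3wk, and all IDPN-7wk libraries were below the Control libraries. The highest values, 5.82, 4.07 and 2.64, were those of the 3 libraries with fewer detected genes. The part of the library set in this ratio was not tested.

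Among 13 genes of the proteins that work with these 7, 2 were called lower at 3 weeks and 4 at 7 weeks, against 1.21% and 3.13% of all genes tested. None was called higher by edgeR or DESeq2, and 0 were higher at an unadjusted p-value under 0.05. Myo15a, the myosin that carries whirlin to the tips of stereocilia, had 87.9 to 116 CPM in the Control group, 22.3 to 32.4 CPM in the IDPN-3wk group and 26.3 to 37.0 CPM in the IDPN-7wk group. On the log2 scale it fell by 1.85 at 3 weeks (SE 0.187, adjusted p = 0.00158) and by 1.65 at 7 weeks (SE 0.185, adjusted p = 0.000803). Tmc1, a component of the transduction channel, fell by 1.05 at 3 weeks and by 1.02 at 7 weeks on the log2 scale. Cdh23, the cadherin of the tip link bound by harmonin, was called at 7 weeks only (-1.29, SE 0.314, adjusted p = 0.0384). Its 3-week value was -0.47 (adjusted p = 0.502), and the difference between the times was not called (adjusted p = 0.287). Lhfpl5, which joins the tip link to the channel, was likewise called at 7 weeks (-0.69, SE 0.13, adjusted p = 0.0123).

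Pcdh15, the other cadherin of the tip link, had 5.45 to 11.4 CPM in the Control group, 0 to 1.83 CPM in the IDPN-3wk group and 0.905 to 1.49 CPM in the IDPN-7wk group. No IDPN library reached the Control range, and replicate 2 of IDPN-3wk had no count at all. The gene was not called by edgeR (adjusted p = 0.15 at 3 weeks and 0.161 at 7 weeks), and the SE of its log2 fold change was 1.04 and 1.01. DESeq2 called it lower at both times (adjusted p = 0.00762 and 0.0287). Whrn had 20.3 to 29.8 CPM in the Control group, with a log2 fold change of -0.54 at 3 weeks (adjusted p = 0.334) and -0.31 at 7 weeks (adjusted p = 0.582). Neither Whrn nor Pdzd7, the scaffold genes of the ankle links, was called by edgeR or DESeq2.

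**Figure D4:**
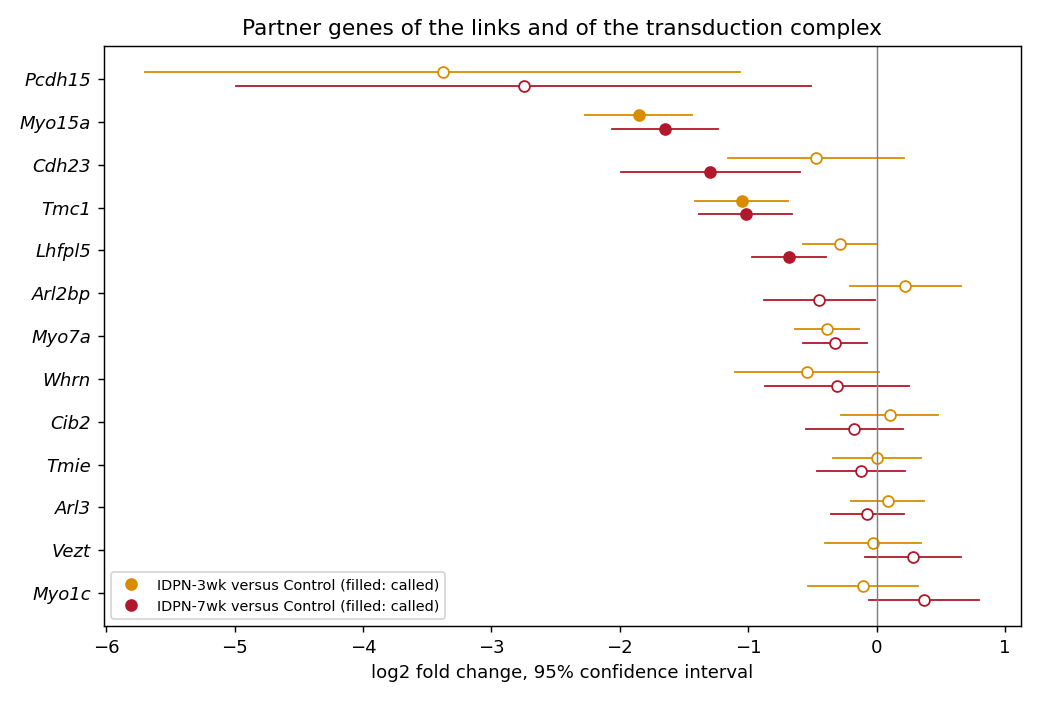
Log2 fold change of 13 partner genes at 3 weeks and 7 weeks, with 95% confidence intervals of the edgeR fit as lines. Filled points mark called genes, all to the left of 0, and the longest intervals are those of Pcdh15.

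Of 10 tested relatives of the 7 proteins, 6 had log2 fold changes below 0 at each time. Adgrl3, another adhesion receptor, was called lower at 3 weeks (-1.16, adjusted p = 0.0311) and at 7 weeks (-1.09, adjusted p = 0.0175). Otoa, which codes for otoancorin, passed the threshold on p but not on fold change at both times (-0.56, adjusted p = 0.0301, and -0.47, adjusted p = 0.029). Msln, a gene of the protein family of stereocilin, was called higher at 7 weeks (1.24, SE 0.195, adjusted p = 0.00499), with 199 to 325 CPM against 105 to 129.9 CPM in the Control group. The brush border of gut cells uses a link complex with harmonin, and 2 of its 3 tested genes had log2 fold changes below 0 at both times. Of these, Calml4, a calmodulin-like protein, passed the threshold on p alone at 7 weeks (-0.47, adjusted p = 0.0385). Cdhr2, a protocadherin, was called higher at both times. Its level was 5.89 to 8.01 CPM in the Control group, 14.8 to 27.8 CPM in the IDPN-3wk group and 15.6 to 17.7 CPM in the IDPN-7wk group, and the log2 fold change was 1.56 at 3 weeks (SE 0.255, adjusted p = 0.0154) and 1.28 at 7 weeks (SE 0.253, adjusted p = 0.0155).

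Of 17 other genes of the hair bundle, 4 were called lower at 3 weeks and 6 at 7 weeks, against 1.21% and 3.13% of all genes tested. None was called higher by edgeR or DESeq2, and the number higher at an unadjusted p-value under 0.05 was 0 at 3 weeks and 1 at 7 weeks. Those called at both times were Atp2b2, a calcium pump of the stereocilia, Loxhd1, Xirp2 and Myo3b, with log2 fold changes of -1.31 to -2.09 at 7 weeks. Espn, which bundles actin, and Elmod1 were called at 7 weeks (-1.47 and -1.27). In the list of 12 HC genes, 2 were called lower at 3 weeks and 5 at 7 weeks, against the same shares, and none was called higher. Log2 fold changes above 0 were found for 4 of the 12 at 3 weeks (Gfi1, Strip2, Gng8 and Chrna9) and for 1 at 7 weeks (Strip2). The median log2 fold change was -0.22 and -0.40 in the bundle list and -0.37 and -0.65 in the list of HC genes.

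Markers of other cells moved in part with these values. Of 10 supporting cell genes, 1 was called lower at 3 weeks and 4 at 7 weeks, and of 4 Schwann cell genes 0 and 2. The shares of all genes called lower were 1.21% and 3.13%, and among the 7 genes 2 were called lower at each time. Supporting cell genes lower at an unadjusted p-value under 0.05 numbered 5 at 3 weeks and 7 at 7 weeks, and DESeq2 called 3 and 5 lower. The median log2 fold change of the supporting cell genes was -0.32 and -0.89. At 3 weeks 0 Schwann cell genes had an unadjusted p-value under 0.05, and DESeq2 called 0. Of 6 macrophage genes 0 were called by edgeR at either time. At 7 weeks 3 of them were higher at an unadjusted p-value under 0.05, DESeq2 called 2 higher, and their level was 120 to 162 CPM in sum in the IDPN-7wk group against 44.0 to 81.1 CPM in the Control group. None of 5 genes of afferent neurons was called by edgeR. Their number with an unadjusted p-value under 0.05 was 2 at 3 weeks and 1 at 7 weeks, and DESeq2 called 1 lower and 1 higher at 3 weeks and 0 at 7 weeks. Of 6 genes of stroma and endothelium, 1 was called higher at 7 weeks, Cdh5, and of 4 genes of dark cells and melanocytes 1 was called lower at 7 weeks, Kcnq1. Their part in the values of the 7 genes was not tested.

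The genes with the most similar pattern were found by the root mean square difference of log2 CPM, centred on the Control mean, over the 9 libraries. For Ptprq they were Shank2 (0.157), Hydin (0.162) and Atp2b2 (0.169), where the median over 11350 genes was 1.31. For Adgrv1 they were Thsd7a (0.169), Otogl (0.178) and Otof (0.201), with a median of 0.954. Otogl is from the list of supporting cell genes and Otof from that of HC genes. Clic5 (0.194), Mtmr11 (0.221) and Ttll3 (0.239) were nearest to Strc. Cst3 (0.0586), Plpp3 (0.0908) and Ednrb (0.0976) were nearest to Ush1c. Tecr (0.0733), Ndfip1 (0.0818) and Nicn1 (0.0847) were nearest to Clrn1. For Pdzd7 they were Arap2 (0.281), Carf (0.283) and Golga1 (0.289), and for Ush1g, where counts were few, Wdcp (0.356), Tmem125 (0.365) and Tfe3 (0.387). Small differences are easier to reach for genes that vary little, such as Clrn1 and Ush1c, whose medians over all genes were 0.423 and 0.48.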

How the data were processed

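RNA of 9 rats (3 per group) was amplified by SMARTseq2 without molecular identifiers, so reads are not independent molecules. Before deposit, the authors mapped reads to the rat genome Rnor6.0 with STAR and computed estimated counts for each gene with RSEM, as whole numbers without normalization. Versions in the submitters' processing notes are STAR 2.5.3a and RSEM 1.3.0, and the methods of the study state another RSEM version. The annotation at hand (GRCr8) is of another build than the files, so it served only for names and overlaps, and no coordinates are given.

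Genes kept by filterByExpr were normalized by TMM and tested in R 4.3.3 with the robust quasi-likelihood test of edgeR 4.0.16, in a single fit of 9 libraries with a mean per group. P-values were adjusted by Benjamini-Hochberg over 15517 genes. SEs and 95% intervals come from this fit, which had 6 residual degrees of freedom. Log2 ratios used a prior count of 2. The members and lists were chosen with earlier results of these data known. Named genes were the 7 members, list genes that were called or that have a defined role, and the 3 nearest genes per member with a mean CPM of at least 5. Tomt, Pecam1 and Dct were not matched by symbol, and 2 genes of the lists are not reported here. Levels per coding length were planned but not made, since no lengths were at hand. Replicates are numbered in sample order and are unpaired. Replicates differed by more than sampling noise (lowest chi-square per gene 19.2). On simulated data of 15185 genes for IDPN-7wk versus Control, 9 of 50 genes changed 1.5-fold were recovered, 23 of 50 at 2-fold and 32 of 50 at 4-fold, with 8 false calls. Alternatives were DESeq2 1.42.0, RLE size factors, other filters, only the groups compared, other fold thresholds, the library set as a covariate, other reference genes and each library left out. An analysis without the 3 libraries with fewer genes was added after seeing the data.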

Additional observations from a re-analysis of the deposited data

Results flagged for a closer look

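In the lists, 2 genes that are not among the 7 differed between the exposures of 7 and 3 weeks in the test of the difference itself. Msln was higher at 7 weeks by 1.27 on the log2 scale (edgeR, adjusted p = 0.021), and Gjb6, a connexin of supporting cells, was lower, with a log2 difference of -0.689 (adjusted p = 0.0426).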

How the results depend on the processing

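No paired analysis was possible because the labels carry no replicate numbers, and the codes in the titles leave the Control libraries under a code of their own. Of 269 values of the 7 genes under the alternatives, 251 kept their direction and their side of the threshold. Most of these were values that were not called in the main analysis and stayed uncalled. The call of Adgrv1 held in 6 of 13 alternatives at 3 weeks and in 11 of 13 at 7 weeks. The calls of Ptprq held in all alternatives at both times. Values that changed sign were all of comparisons in which the gene was not called: Adgrv1 between 7 and 3 weeks was 0.00532 with the library set as covariate, -0.305 to 0.141 with a library left out (0.141 without IDPN-3wk replicate 2) and 0.305 without the 3 libraries with fewer genes, and Pdzd7 at 7 weeks was -0.434 to 0.286 with a library left out (0.286, 0.0617 and 0.101 without Control replicate 1, Control replicate 2 or IDPN-7wk replicate 2), and -0.0717 between the times with the covariate. The cause was not tested. The number of the 7 genes called at 3 weeks was 1 with only the groups compared, with a fold change above 2 and with the covariate, and 1 to 2 with a library left out. At 7 weeks it was 1 to 3 with a library left out, and between the times 0 to 0. Without the 3 libraries with fewer genes, the same 2 genes were called at both times. All genes called at 3 weeks were 256 in the main analysis, 118 with only the groups compared, 159 at fold change above 2, 743 by DESeq2 and 75 to 439 with a library left out. At 7 weeks they were 796, and 1249, 480, 1317 and 432 to 600 in these settings, with 1563 without the 3 libraries. Between the times they were 75, and 123 with at least 10 counts in every library, 46 with only the groups compared, 37 with the covariate, 524 by DESeq2 and 39 to 445 with a library left out. Ratios to HC genes without overlap numbered 4 at 3 weeks (2 with the median, 4 to 5 with a library left out), 4 at 7 weeks (2 with Myo7a alone, 4 to 5) and 3 between the times (5 with the median, 3 to 4). Their share over all genes was not computed, and groups with a library left out are easier to keep apart. Depth limited Ush1g, at 3 to 28 counts per library.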
